A study of Mus musculus with 30 samples.

Results

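The genes described here are the 10 genes chosen by name for the presentation of peptides on MHC class I, measured by bulk RNA sequencing of sorted monocytes and macrophages from the blood and from GL261 gliomas of the same mice. They are the heavy chain genes H2-K1, H2-D1, H2-Q4, H2-Q7 and H2-T23, the light chain gene B2m, the peptide transporter genes Tap1 and Tap2, the immunoproteasome gene Psmb8 and the regulator gene Nlrc5, which makes 10 of the 45317 gene symbols in the count tables. All 10 passed the filter on low counts that left 11566 genes for testing. The mice were heterozygous C57BL6.CCR2RFP/WT knock-in animals of both sexes, aged 12 to 18 weeks, in which red fluorescence reports Ccr2. Every animal carried an intracranial GL261.BpalmGFP tumor, a murine glioma line that tags its membranes and extracellular vesicles with GFP, so that GFP in a myeloid cell marks uptake of tumor material. The blood of tumor-bearing mice served as the comparison, and no tumor-free animals were analysed here. Blood CD45high CD115high CD11clow monocytes were split by Ly6C into Ly6Chigh and Ly6Clow cells. Brain CD11bhigh CD45high cells were gated apart from microglia and then divided into Ly6Chigh glioma monocytes and into CCR2high and CCR2low macrophages, each as GFPneg and GFPpos cells. There were 3 mice in each monocyte population and 4 in each macrophage population, giving 6 blood and 22 brain replicates. Mouse 26 gave no blood populations and mouse 23 no glioma monocytes. The model rests on 1 transplanted tumor line, on 4 mice, and on animals with 1 Ccr2 copy replaced by the reporter.

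MHC class I molecules display peptides made inside the cell to CD8 T cells and serve as ligands for inhibitory receptors of NK cells. Peptides are cut by the proteasome, in which interferon-induced subunits such as Psmb8 can replace the constitutive ones, are pumped into the endoplasmic reticulum by the Tap1-Tap2 transporter, and are loaded there onto a heavy chain paired with B2m. Myeloid cells raise most of these genes together in response to interferons, and NLRC5 acts as a transactivator at the promoters of class I genes.

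Genes assigned between 1553616 and 5689644 reads per replicate, with a median of 2140229.5. Values below are normalized read counts (CPM, reads of the gene per 1000000 assigned reads after TMM scaling), and a gene is called changed when its Benjamini-Hochberg adjusted p from edgeR's quasi-likelihood test over all 11566 genes (FDR) is under 0.05. Csf1r, the receptor for the main macrophage growth factor, was read in every population. Ly6c2 was higher in Ly6Chigh than in Ly6Clow blood monocytes (log2 fold change 3.26, FDR 0.000548), as the gate on Ly6C sets. In such bulk samples, fewer cells of a type and less RNA per cell cannot be told apart.

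A pair of samples had 2 libraries each, and these stood apart. For GFPpos glioma monocytes of mouse 22 both libraries passed the quality rule and were summed, although H2-K1 stood at 5682 CPM in the first and 1261 CPM in the second. CPM of single libraries are per library total, without TMM scaling. For Ly6Clow blood monocytes of mouse 23 the first library failed the rule, with 3460 genes at 5 or more reads, and the second was used alone, with 6475 such genes and 13.3% of its reads on spike-in RNA. Repeat libraries of the same cells thus disagreed widely. Genes above a minimum count over both libraries were compared, 7494 in the GFPpos monocytes and 5186 in the Ly6Clow cells. A small constant was added to each CPM. The log2 ratio of the second to the first ran from -3.04 at the 5th to 5.08 at the 95th percentile in the GFPpos monocytes. In the Ly6Clow cells it ran from -5.80 to 7.29. Counts of calls that rest on these samples are given with and without the second libraries.

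**Figure D1:**
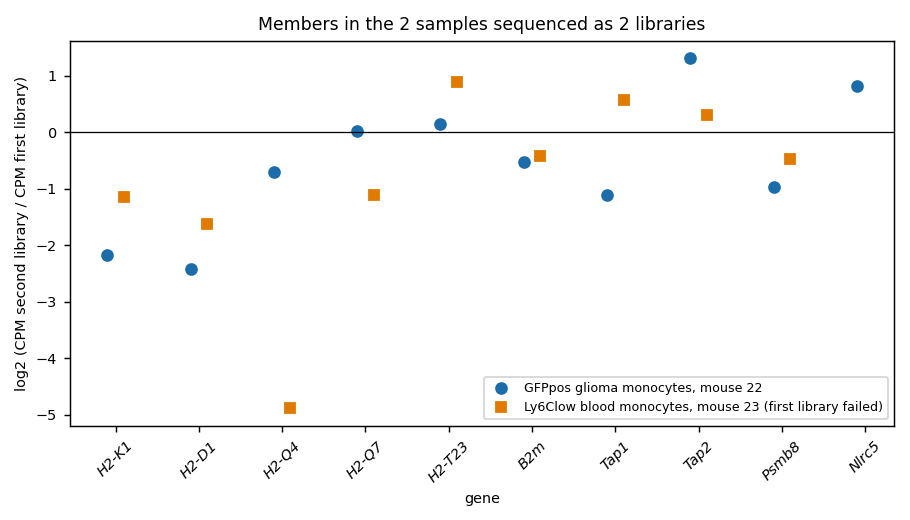
Log2 ratio of the CPM in the second library to the CPM in the first for each of the 10 genes, without TMM scaling, in GFPpos glioma monocytes of mouse 22 (circles) and Ly6Clow blood monocytes of mouse 23 (squares), with a line at equal levels. In the GFPpos monocytes H2-K1 and H2-D1 lay below the line, at ratios of 0.222 and 0.187, and Tap2 above it at 2.48. Nlrc5 had no reads in the first Ly6Clow library and has no square.

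The upstream sequences of the heavy chain genes and of B2m are shown because class I genes are known to share promoter elements, and because H2-K1 and H2-D1 gave different values in the comparisons below. RefSeq start sites on GRCm38.p6 were matched for 8 of the 10 genes, all but Tap2 and Nlrc5. Where a gene had several start sites, the most upstream was kept. The printed stretches end at that start, which lies at different distances from the shared letters. For H2-D1 the stretch lies inside the GENCODE span of the gene given below. The sequences run 5′ to 3′ toward the start site on the strand of the gene. H2-K1 lies at chr17:34000348-34000470 on the minus strand, H2-D1 at chr17:35262911-35263093, H2-Q4 at chr17:35379432-35379616 and H2-Q7 at chr17:35439010-35439154 on the plus strand, and B2m at chr2:122147538-122147686 on the plus strand. Capitals mark matches on either strand to the κB letters (GGGA, any base, T, any 2 bases, CC), the interferon regulatory factor core AANNGAAA, the X2 core TGACG of the class I promoter and CCAAT.
H2-K1: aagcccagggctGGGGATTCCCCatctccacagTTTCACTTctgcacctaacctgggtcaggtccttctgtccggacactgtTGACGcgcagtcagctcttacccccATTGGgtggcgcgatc
H2-D1: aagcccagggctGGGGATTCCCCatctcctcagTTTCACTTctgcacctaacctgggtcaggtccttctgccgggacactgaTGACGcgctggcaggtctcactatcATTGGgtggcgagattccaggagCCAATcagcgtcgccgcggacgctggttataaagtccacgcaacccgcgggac
H2-Q4: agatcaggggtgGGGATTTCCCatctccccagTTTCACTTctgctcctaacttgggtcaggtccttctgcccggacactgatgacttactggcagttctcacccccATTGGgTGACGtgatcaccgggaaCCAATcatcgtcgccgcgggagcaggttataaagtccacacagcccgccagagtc
H2-Q7: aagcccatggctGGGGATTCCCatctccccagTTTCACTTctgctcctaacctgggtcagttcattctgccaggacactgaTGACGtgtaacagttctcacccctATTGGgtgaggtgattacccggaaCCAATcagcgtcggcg
B2m: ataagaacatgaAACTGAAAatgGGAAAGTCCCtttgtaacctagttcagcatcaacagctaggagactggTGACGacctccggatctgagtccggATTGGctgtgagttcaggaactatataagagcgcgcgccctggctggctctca
Reading from the left, the printed stretches of H2-K1, H2-D1 and H2-Q7 carry these letters in the same order, with 49 bases from the first base of the IRF core to the first base of TGACG in each. In H2-Q4 the same place holds G5T, counted from 1 at the first base of TGACG, and a further TGACG lies nearer to the start. Over 60 bases from the IRF core on, H2-K1 and H2-D1 were identical at 91.7% of positions, against 83.3% for H2-K1 and H2-Q7. B2m carries its IRF core before its κB match and on the opposite strand to the heavy chain genes. In the 250 bases before the start, the κB letters occurred in 5 of the 8 genes (H2-K1, H2-D1, H2-Q4, H2-Q7 and B2m) and in 3.44% of all 32851 promoters. The IRF core was found in 6 of 8 against 21.3%, TGACG in 6 of 8 against 17.8%, CCAAT in 7 of 8 against 33.8%, and the interferon-γ activated sequence letters TTCNNNGAA in 1 of 8 (Psmb8) against 7.02%. These are matches of letters and not measured binding sites. All of the genes except B2m and Nlrc5 lie in the MHC on chromosome 17. In GENCODE vM21 on GRCm38, H2-K1 spans chr17:33996017-34000347, and Tap1, Psmb8 and Tap2 follow one another at chr17:34187553-34197225, chr17:34197721-34201454 and chr17:34203527-34216321. H2-D1 spans chr17:35262730-35267499, H2-Q4 chr17:35379617-35385290, H2-Q7 chr17:35439155-35443773 and H2-T23 chr17:36029773-36032855. B2m lies at chr2:122147686-122153083 and Nlrc5 at chr8:94434356-94527272. H2-K1 and H2-T23 are on the minus strand and the other 8 genes on the plus strand.

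Most of the class I genes stood higher in every glioma population than in circulating Ly6Chigh monocytes. In all 22 brain replicates the levels of H2-K1, H2-Q7, H2-T23, B2m, Tap1 and Tap2 were above those of all 3 Ly6Chigh blood replicates, which is 6 of 10 genes, while 8.83% of all tested genes had that pattern. Psmb8 was above all Ly6Chigh replicates in 20 of 22 brain replicates, H2-Q4 in 21, H2-D1 in 15 and Nlrc5 in 4. Against Ly6Chigh blood monocytes, 8 of 10 genes rose in GFPneg glioma monocytes, 7 of 10 in GFPneg CCR2high macrophages and 7 of 10 in GFPneg CCR2low macrophages, and none fell. Of all tested genes, 11.1%, 12.7% and 14.1% rose in these comparisons. The median log2 fold change of the 10 genes was 1.39, 1.01 and 0.95, and that of all tested genes was 0.12, 0.15 and 0.17. The 3 comparisons share their blood replicates and are therefore not independent of one another.

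**Figure D2:**
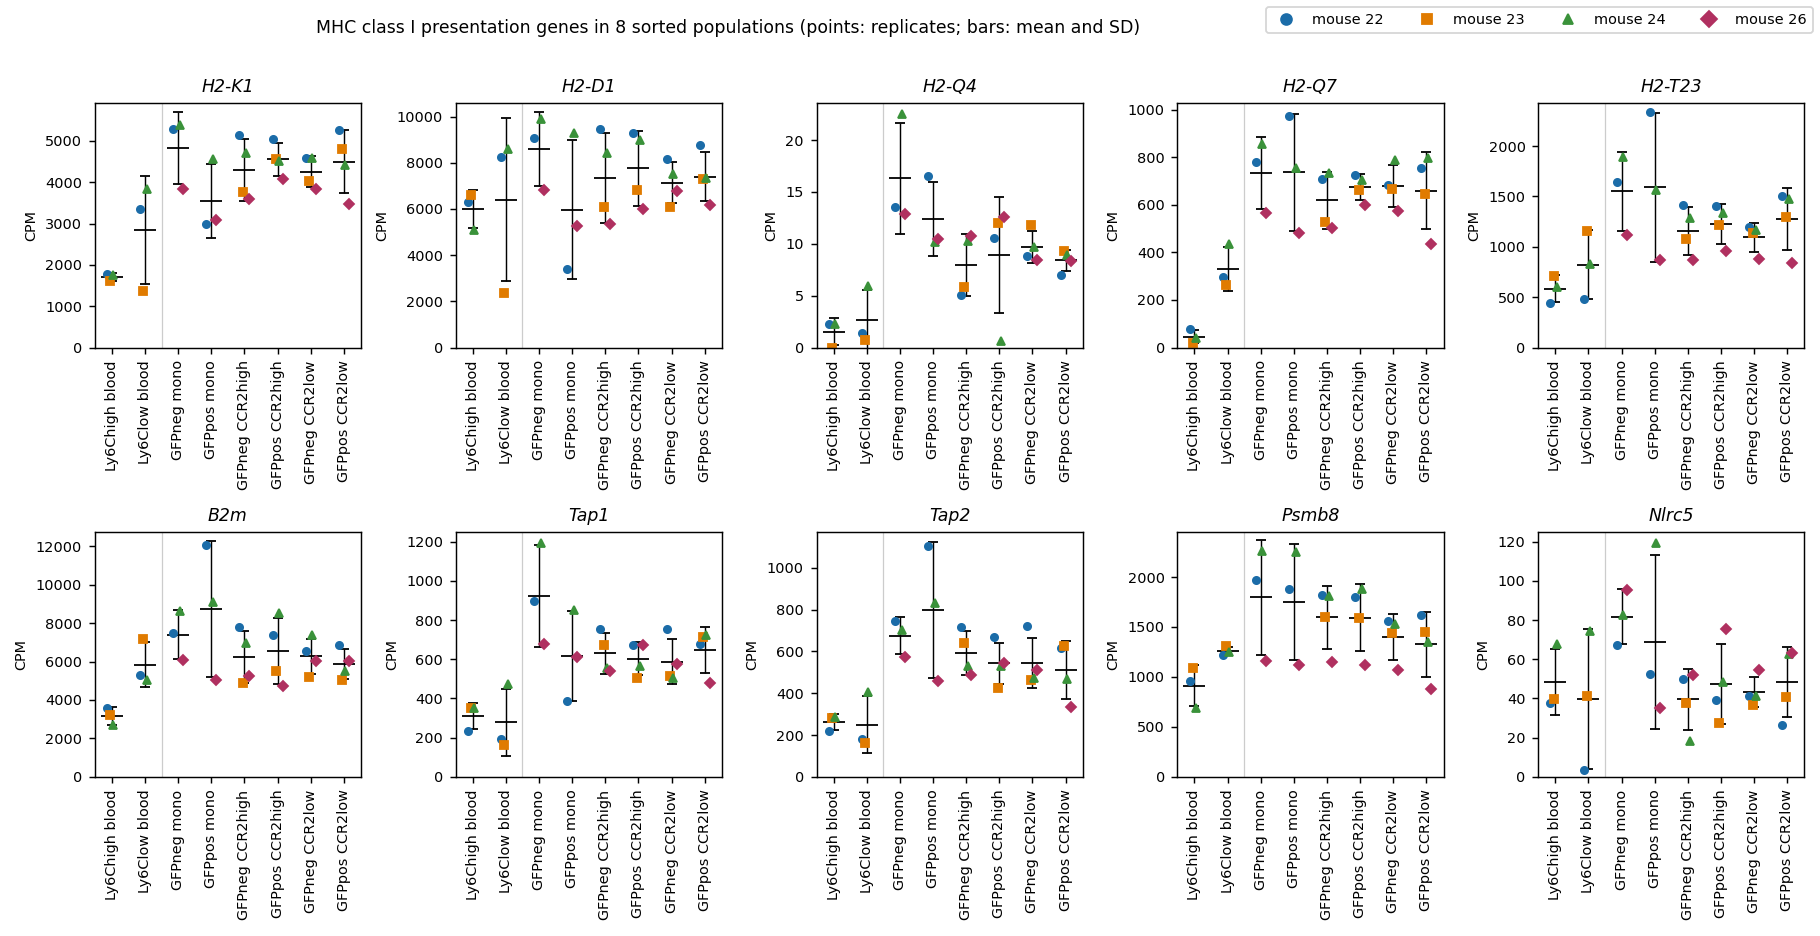
Level of each of the 10 genes in the 8 sorted populations, in CPM on a linear axis from 0, with 1 point per replicate marked by mouse and bars at the mean and SD. H2-Q7 was above every blood replicate in all 22 brain replicates, narrowly so, with 436 CPM as the lowest brain and 434 CPM as the highest blood value. The H2-D1 ranges of blood and brain overlapped.

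H2-K1, which encodes the classical heavy chain K, stood at 1782, 1601 and 1743 CPM in the Ly6Chigh blood monocytes of mice 22, 23 and 24. GFPneg glioma monocytes had 5284, 5390.2 and 3827 CPM in mice 22, 24 and 26. The groups did not overlap, and 21.6% of all tested genes were likewise higher without overlap. The log2 fold change of H2-K1 was 1.5 ± 0.27 (SE, FDR 0.000234). Among GFPneg CCR2high macrophages the 4 mice had 5139, 3758, 4707 and 3588 CPM (log2 fold change 1.33 ± 0.25, FDR 0.000387), and among GFPneg CCR2low macrophages 4576, 4037, 4590.4 and 3827 CPM (1.32 ± 0.25, FDR 0.000382). Every brain mean, from 3548 CPM in GFPpos glioma monocytes to 4834 CPM in GFPneg glioma monocytes, was above both blood means, and neighbouring populations in the order of means overlapped in range throughout.

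H2-D1, the other classical heavy chain gene of this mouse strain, was already at 6296, 6614 and 5074 CPM in Ly6Chigh blood monocytes. In GFPneg glioma monocytes it reached 9091, 9907 and 6809 CPM, and the log2 fold change of 0.52 ± 0.35 missed the threshold (FDR 0.405). The values in GFPneg CCR2high and CCR2low macrophages were 0.29 ± 0.33 (FDR 0.616) and 0.25 ± 0.33 (FDR 0.674). Within each replicate the count of H2-D1 can be set against that of H2-K1, a ratio that no scaling of the library changes. In Ly6Chigh blood monocytes it was 3.53, 4.13 and 2.91 in mice 22, 23 and 24, and in Ly6Clow monocytes it ran from 1.72 to 2.47. In brain populations the ratio ran from 1.14 to 2.03, with population means of 1.62 to 1.78. The Ly6Chigh blood replicates were thus above every other replicate, and the brain range overlapped that of Ly6Clow cells. The lowest brain ratio came from GFPpos glioma monocytes of mouse 22, one of the samples with 2 libraries, and the lowest ratio in the other brain populations was 1.47. This ratio was chosen after the values were seen and was not tested.

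**Figure D3:**
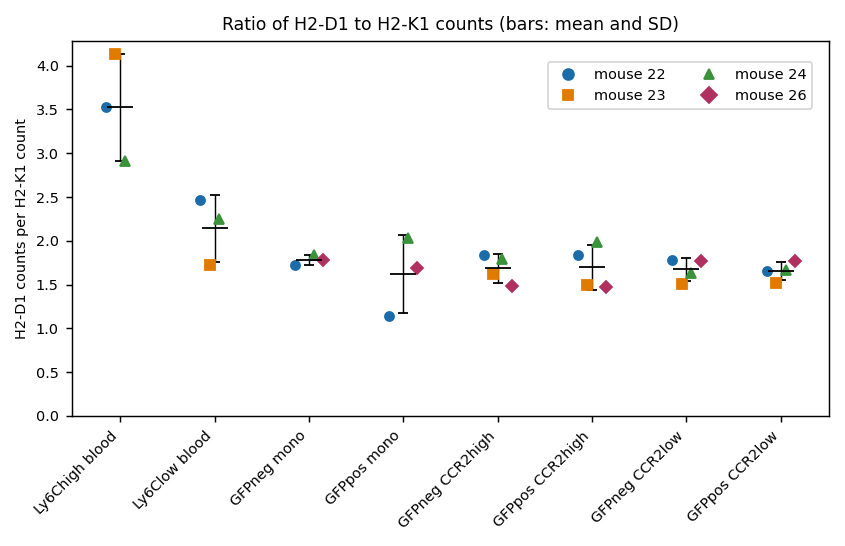
Ratio of the H2-D1 count to the H2-K1 count in each replicate of the 8 populations on a linear axis from 0, with points marked by mouse and bars at the mean and SD. The Ly6Chigh blood monocytes lay between 2.91 and 4.13, and no brain replicate exceeded 2.03.

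H2-Q7, which encodes the nonclassical molecule Qa-2, had the largest difference of the 10 genes. It stood at 77.5, 19.9 and 41.0 CPM in Ly6Chigh blood monocytes and at 782, 854 and 565 CPM in GFPneg glioma monocytes (log2 fold change 3.99 ± 0.37, FDR 2.55e-08). The GFPneg macrophages were as high, with 3.75 ± 0.36 (FDR 3.26e-08) in CCR2high and 3.88 ± 0.36 (FDR 1.95e-08) in CCR2low cells. Ly6Clow blood monocytes lay between Ly6Chigh monocytes and brain, at 295, 261 and 434 CPM, and all 22 brain replicates, from 436 to 972 CPM, were above them. H2-Q7 shares reads with close relatives: 17% of its 75-base stretches also occur in another gene, and its neighbour H2-Q6 moved with it (log2 fold change 4.61, FDR 4.97e-08 in GFPneg glioma monocytes), so counts of the 2 genes are uncertain.

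H2-Q4, another nonclassical gene of the Q region, was near the detection limit in blood, with 4, 0 and 11 counts in the Ly6Chigh replicates of mice 22, 23 and 24, or 2.25, 0 and 2.30 CPM. A count of 0 allows up to 3 counts. GFPneg glioma monocytes had 13.5, 22.5 and 12.9 CPM (log2 fold change 3.32 ± 0.86, FDR 0.00946). GFPneg CCR2high macrophages had 5.05, 5.82, 10.3 and 10.7 CPM, which did not pass (2.29 ± 0.81, FDR 0.0503), and CCR2low macrophages 8.81, 11.8, 9.71 and 8.44 CPM, which did (2.57 ± 0.82, FDR 0.0261). H2-Q4 has the highest share of 75-base stretches found elsewhere, 20.7%, and 496 of its exon bases overlap Gm11131 on the opposite strand.

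H2-T23 encodes Qa-1, the ligand of the inhibitory NKG2A receptor of NK and CD8 T cells. It was at 440.4, 709 and 599.9 CPM in Ly6Chigh blood monocytes and at 1647, 1890.4 and 1121 CPM in GFPneg glioma monocytes (log2 fold change 1.41 ± 0.33, FDR 0.00352). It was higher without overlap, as were 21.6% of all tested genes. It also rose in GFPneg CCR2high macrophages (0.99 ± 0.31, FDR 0.0242) and CCR2low macrophages (0.91 ± 0.31, FDR 0.0353). These macrophage calls were fragile. H2-T23 was called in 3 of 7 fits that each left out 1 replicate for CCR2high and in 1 of 7 for CCR2low macrophages. Over the brain replicates its level ran from 835 to 1890.4 CPM, apart from GFPpos glioma monocytes of mouse 22, a sample with 2 libraries, at 2337 CPM.

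B2m, the light chain shared by all class I molecules, was at 3579.6, 3225 and 2688 CPM in Ly6Chigh blood monocytes and at 7481, 8642 and 6095 CPM in GFPneg glioma monocytes. The log2 fold change was 1.23 ± 0.27 (FDR 0.00215), with 0.98 ± 0.25 (FDR 0.00723) in GFPneg CCR2high and 0.99 ± 0.25 (FDR 0.00596) in CCR2low macrophages. Per kilobase of exon, where levels of different genes can be set side by side, B2m was the highest of the 10 genes, with a median of 7015 CPM per kb over the replicates. H2-D1 followed with 2733 and H2-K1 with 1381, and the lowest were Nlrc5 with 5.27 and H2-Q4 with 3.51 CPM per kb.

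The transporter genes moved alongside each other. Tap1 had 233, 349 and 349 CPM in Ly6Chigh blood monocytes and 896, 1196 and 677 CPM in GFPneg glioma monocytes (log2 fold change 1.57 ± 0.33, FDR 0.00153). Tap2 had 219, 279 and 286 CPM against 747, 704 and 575 CPM (1.37 ± 0.33, FDR 0.00461). Both also rose in GFPneg CCR2high macrophages, by 1.02 ± 0.31 (FDR 0.0222) for Tap1 and 1.18 ± 0.31 (FDR 0.00786) for Tap2, and in CCR2low macrophages, by 0.92 ± 0.31 (FDR 0.0355) and 1.05 ± 0.31 (FDR 0.0155). In each of these comparisons both genes were higher without overlap of the groups. The same held for 21.6%, 21.8% and 21.1% of all tested genes in glioma monocytes, CCR2high and CCR2low macrophages. Of the exon bases of Tap1, 212 overlap Psmb9 on the opposite strand. Opposite-strand overlaps are larger for Tap2, with 533 bases in Gm15821 and 165 in Gm20496, and for Psmb8, with 498 in Gm20496. The strand setting of the counting is not given in the sources used here.

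Psmb8, the interferon-induced catalytic subunit of the immunoproteasome, stood at 959.5, 1087 and 690.2 CPM in Ly6Chigh blood monocytes and at 1973, 2258 and 1154 CPM in GFPneg glioma monocytes (log2 fold change 0.98 ± 0.28, FDR 0.0207). It rose in GFPneg CCR2high macrophages (0.81 ± 0.27, FDR 0.0366), a call lost without the second libraries (0.77, FDR 0.0632). Neither population compared has a second library, but the fit spans all 8 populations. In CCR2low macrophages the value of 0.62 ± 0.27 missed the threshold (FDR 0.110), and with the mouse as a block it was 0.78 and passed (FDR 0.000637). Nlrc5, the transactivator, was at 37.6, 39.8 and 67.9 CPM in Ly6Chigh blood monocytes and at 67.2, 82.4 and 95.5 CPM in GFPneg glioma monocytes, where the single highest blood value overlapped the lowest glioma value. Its log2 fold change was 0.75 ± 0.62 (FDR 0.535) there, -0.30 ± 0.57 (FDR 0.788) in CCR2high and -0.17 ± 0.58 (FDR 0.891) in CCR2low macrophages, so that at this spread no difference was detectable in either direction.

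**Figure D4:**
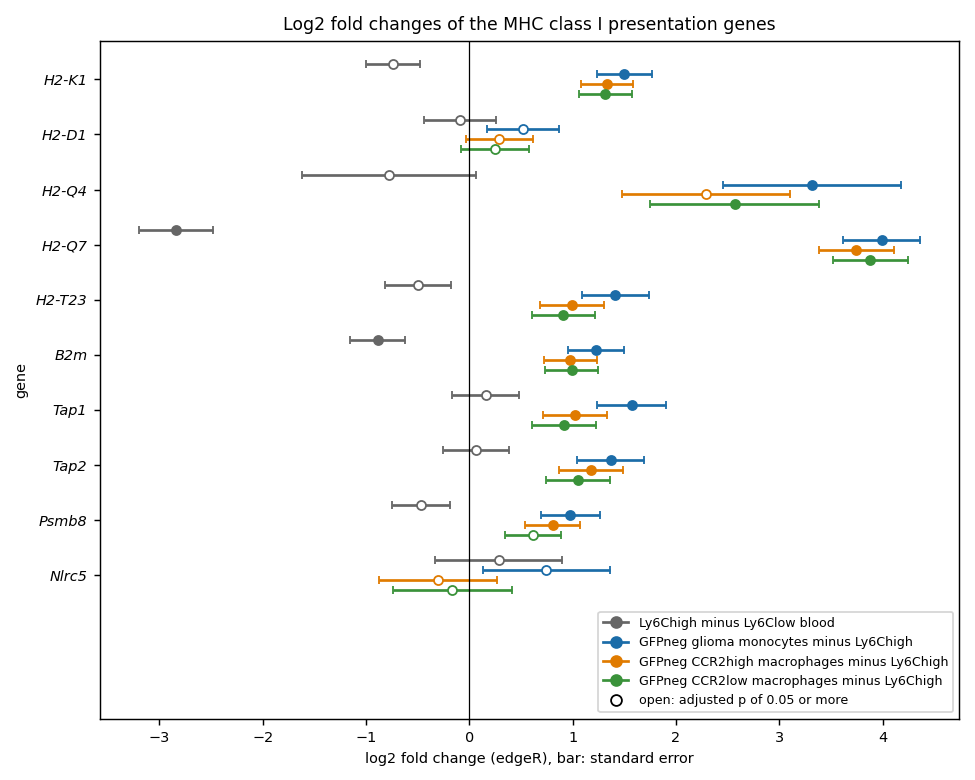
Log2 fold change of each of the 10 genes from edgeR, with bars of 1 standard error, for Ly6Chigh against Ly6Clow blood monocytes and for the 3 GFPneg glioma populations against Ly6Chigh blood monocytes. Filled points have an FDR under 0.05. H2-Q7 was at 3.75 to 3.99 in the brain comparisons and at -2.84 between the blood populations, and the points of H2-D1 and Nlrc5 are all open.

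The GFPpos populations had like differences from Ly6Chigh blood monocytes. Of the 10 genes, 8 rose in GFPpos glioma monocytes, 8 in GFPpos CCR2high macrophages and 7 in GFPpos CCR2low macrophages, where 17%, 13.6% and 15.3% of all tested genes rose. H2-Q7 had log2 fold changes of 4.0, 3.87 and 3.84. Without the second libraries the counts were 8, 7 and 7.

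Scaling by the spike-in RNA ended most of these calls. With library sizes set by spike-in totals, 1 of the 10 genes was called in each of the comparisons of GFPneg glioma monocytes, CCR2high and CCR2low macrophages with Ly6Chigh blood, and 10, 9 and 9 of the 10 fold changes were still above 0. The call that held was H2-Q7. The genes whose call was lost kept log2 fold changes of 0.83 to 2.78 in glioma monocytes, 0.93 to 1.29 in CCR2high and 0.77 to 2.09 in CCR2low macrophages, where the medians of all tested genes were -0.04, 0.15 and 0.01. In GFPpos glioma monocytes under the same scaling only 2 of 10 were above 0, where the median of all tested genes was -1.37. The calls also depended on single blood replicates: the count in CCR2high macrophages fell to 3 of 10 without Ly6Chigh mouse 22 or mouse 24, and to 4 without GFPneg CCR2high mouse 22, and the count in CCR2low macrophages fell to 3 without Ly6Chigh mouse 22 or mouse 23 and to 4 without Ly6Chigh mouse 24 or GFPneg CCR2low mouse 22. H2-K1 and H2-Q7 were called in each of these fits. Over all fits that left out 1 replicate, Tap1 was called in 2 of 7 for each macrophage type. Tap2 was called in 6 of 7 for CCR2high and 4 of 7 for CCR2low macrophages. Psmb8 was called in 2 of 6 for glioma monocytes and 1 of 7 for CCR2high macrophages, and H2-Q4 in 3 of 7 for CCR2low macrophages.

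Markers of other cells moved in the same comparisons. The summed level of 12 T and NK cell markers was 32.2 to 257 CPM in Ly6Chigh blood monocytes, with 1 of the 12 at 0 in every replicate, and 653 to 3331 CPM over the brain replicates. Of these 12 markers, 11, 11 and 12 rose in GFPneg glioma monocytes, CCR2high and CCR2low macrophages, where 11.1%, 12.7% and 14.1% of all tested genes rose. The 6 microglia markers summed to 23.8 to 57.4 CPM in Ly6Chigh blood and to 949 to 6714 CPM in brain, and all 6 rose in each comparison. Of 8 dendritic cell markers, 3, 4 and 2 rose, 2 fell in CCR2low macrophages (Cd209a and Flt3), and their sums were 135 to 253 CPM in Ly6Chigh blood and 227 to 1040 CPM in brain. The 11 immediate-early and heat shock genes that mark tissue dissociation summed to 1343 to 2337 CPM in blood and 5321 to 22141 CPM in brain, with 9, 7 and 7 of 11 higher. T cells, NK cells, microglia and dendritic cells also transcribe class I genes, and the part of these cells and of dissociation in the class I differences was not tested.

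The blood populations were compared to see whether class I genes differ between inflammatory Ly6Chigh and patrolling Ly6Clow monocytes. H2-Q7 and B2m were lower in Ly6Chigh cells, 2 of 10 genes where 3.65% of all tested genes were lower, and none of the 10 was higher. For H2-Q7, 77.5, 19.9 and 41.0 CPM in Ly6Chigh cells of mice 22, 23 and 24 stood against 295, 261 and 434 CPM in Ly6Clow cells (log2 fold change -2.84 ± 0.36, FDR 2.26e-05). For B2m, 3579.6, 3225 and 2688 CPM stood against 5286, 7194 and 5049 CPM (-0.88 ± 0.27, FDR 0.0487). The B2m call sat at the threshold: it was held in 1 of the 6 fits that each left out a blood replicate, and without the second libraries its FDR was 0.296. In that fit H2-K1 passed instead (-1.04, FDR 0.0118), after 1782, 1601 and 1743 CPM in Ly6Chigh against 3346, 1362 and 3825 CPM in Ly6Clow cells had given -0.74 ± 0.26 (FDR 0.0950) in the full data. The 1362 CPM came from the sample of mouse 23 with 2 libraries, which was also lowest in H2-D1 (2345 CPM against 8250.4 and 8602). When only the 2 blood populations entered the fit, none of the 10 genes was called. Under spike-in scaling none was called either, and B2m turned to 0.98, where the median of all tested genes moved from 0.02 to 1.69, whereas H2-Q7 stayed below 0 (-1.27). The T and NK cell markers summed to 1173 to 2083 CPM in Ly6Clow cells, above the 32.2 to 257 CPM of Ly6Chigh cells, and 11 of the 12 were lower in Ly6Chigh cells. Dendritic cell markers summed to 594 to 1896 CPM in Ly6Clow and 135 to 253 CPM in Ly6Chigh cells, with 1 of 8 called lower, and B cell markers to 246 to 449 CPM and 60 to 115 CPM. The part of these cells in the H2-Q7 and B2m differences was not tested.

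Set against Ly6Clow blood monocytes, 6 of 10 genes rose in GFPneg glioma monocytes, 3 in GFPneg CCR2high and 3 in CCR2low macrophages, where 13%, 14.7% and 15% of all tested genes rose. Tap1 (log2 fold change 1.73), Tap2 (1.43), H2-Q7 (1.15), H2-T23 (0.91), H2-K1 (0.77) and H2-Q4 (2.54) made up the first count, and H2-Q7, Tap1 and Tap2 made up each of the others. Without the second libraries 3, 1 and 0 genes passed. T and NK cell markers, at 1173 to 2083 CPM in Ly6Clow cells and 653 to 3331 CPM in brain, overlapped in this comparison, whereas the microglia markers, at 43.5 to 132 CPM in Ly6Clow cells, did not overlap the brain range.

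No difference in the 10 genes was called between populations of the glioma. There were 9 comparisons within the brain, between the sorted monocyte, CCR2high and CCR2low macrophage gates and by GFP. In these, 0 of 90 values passed edgeR's test, 3 of 90 had an unadjusted p under 0.05, and DESeq2 called 0. Few genes of any kind were called there. The share of all tested genes was 0.182% in GFPneg CCR2high and 1.21% in GFPneg CCR2low macrophages against GFPneg glioma monocytes, 0.0173% and 0.164% in the same comparisons of GFPpos cells, and 0% in the other 5, and 4.3% of all values had an unadjusted p under 0.05. The count of 0 among the 10 genes is therefore near the background. Nlrc5 had a mean of 81.7 ± 14.1 CPM (SD, n = 3) in GFPneg glioma monocytes and of 39.4 ± 15.5 CPM (SD, n = 4) in CCR2high macrophages. The highest macrophage value of 51.9 CPM was under the lowest monocyte value of 67.2 CPM, a pattern of 6.14% of all tested genes. The log2 fold change of Nlrc5, -1.05 ± 0.57, did not pass (FDR 1). Tap1 had -0.65 ± 0.30 in CCR2low macrophages against GFPneg glioma monocytes, which also did not pass (FDR 0.535).

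Uptake of tumor GFP was the question behind the paired sorts. In glioma monocytes the log2 fold changes of GFPpos against GFPneg cells ran from -0.58 ± 0.32 for Tap1 to 0.24 ± 0.32 for Tap2, and none passed. H2-K1 was 2979, 4569 and 3095 CPM in GFPpos cells of mice 22, 24 and 26 beside 5284, 5390.2 and 3827 CPM in GFPneg cells (-0.45 ± 0.26). The mouse 22 value mixes the discordant libraries described above. A further fit left out both second libraries, and with them Ly6Clow mouse 23. In it H2-K1 moved to -0.14 ± 0.21, H2-D1 from -0.53 ± 0.35 to -0.29 ± 0.24, Tap1 to -0.49 ± 0.28 and Tap2 to -0.23 ± 0.29. Within single mice, GFPpos glioma monocytes were below GFPneg cells in all 3 mice for some genes. These were H2-K1 (log2 ratio -0.83 to -0.24), H2-D1 (-1.41 to -0.10), Tap1 (-1.20 to -0.15) and Psmb8 (-0.07 to -0.002). Mouse 22 gave the lowest ratio in each, and every other gene went both ways. This was not tested. For CCR2high macrophages the ratio ran from -0.06 to 0.28 for H2-K1 and from -0.03 to 0.17 for H2-D1. In CCR2low macrophages it ran from -0.14 to 0.25 and from -0.14 to 0.26. The difference of the GFP effect between cell types was tested directly, and none of the 10 genes passed for either macrophage type. No gene of any kind passed there. The smallest FDR of all 11566 tested genes was 0.999942 for CCR2high and 0.999977 for CCR2low macrophages.

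Which mouse a sample came from accounted for more of the spread of these genes than which macrophage population it was. Among the 16 macrophage replicates, 4 populations from each of 4 mice, mouse took a median of 70.1% of the sum of squares of log2 CPM over the 10 genes and population 5.97%, and mouse was above population for 10 of 10. For all tested genes the medians were 33.3% and 17%, and mouse was above population for 7961 of 11566, so the order is general and is given as a description. Mouse 26 was the lowest in 6 of 6 brain populations for H2-Q7, H2-T23 and Psmb8 and in 5 of 6 for H2-K1. Its 4 macrophage populations averaged 886 CPM of H2-T23, beside 1383, 1179 and 1314 CPM in mice 22, 23 and 24, and 1051 CPM of Psmb8, beside 1700.0, 1518 and 1643 CPM. Nlrc5 ran the other way, with mouse 26 highest in 5 of 6 brain populations at a macrophage mean of 61.2 CPM beside 39.1, 35.7 and 42.5 CPM. Mouse 26 gave no blood samples, and sex is not tied to a mouse in the sources used here.

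**Figure D5:**
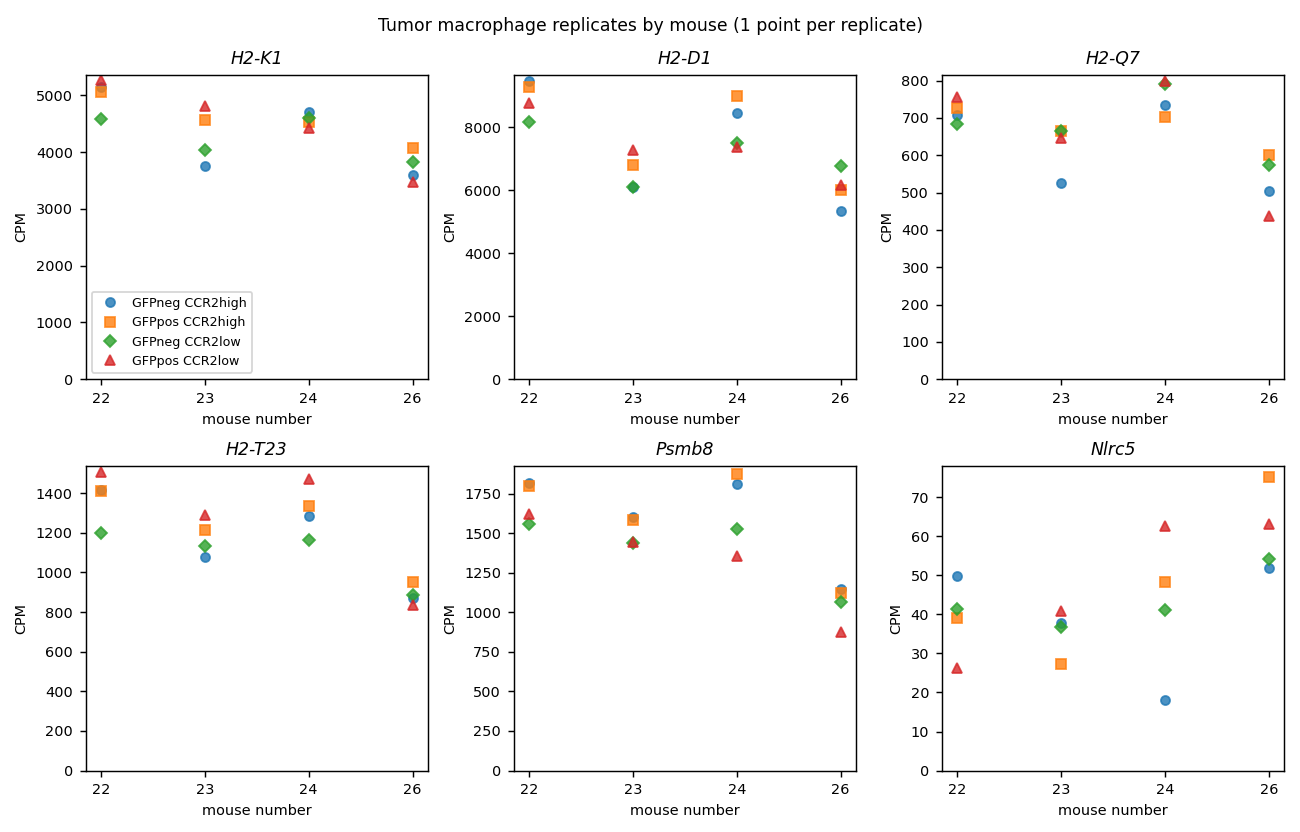
Levels of H2-K1, H2-D1, H2-Q7, H2-T23, Psmb8 and Nlrc5 in the 4 macrophage populations of each mouse, in CPM on a linear axis from 0, with 1 point per population. Mouse 26 had the lowest mean for H2-T23, at 886 CPM, and for Psmb8, at 1051 CPM, and the highest for Nlrc5, at 61.2 CPM.

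The rest of the class I pathway was counted over gene lists. Of 13 other class I and class I-like heavy chain genes 10 were tested, and 4, 5 and 4 rose in GFPneg glioma monocytes, CCR2high and CCR2low macrophages against Ly6Chigh blood. The shares of all tested genes that rose there were 11.1%, 12.7% and 14.1%. H2-Q6 rose by 4.61, 4.41 and 4.45 and H2-T22 by 1.67, 1.32 and 1.11. H2-M2 was at 0 in every blood replicate and averaged 28.8, 107 and 149 CPM in the same brain populations. Of 6 genes for peptide loading and trimming, 3, 2 and 1 rose, the last near the share of all tested genes. They were led by Tapbpl, a tapasin relative that edits peptides (1.18 in glioma monocytes), and Calr, a chaperone of the loading complex (0.81, 1.04 and 0.96). Of 4 other immunoproteasome and activator genes, 3, 3 and 2 rose, with Psmb9 at 1.6, 1.18 and 1.10 and the activator subunit Psme1 at 1.17, 1.03 and 0.85, and none of the 3 constitutive catalytic subunit genes was called in these GFPneg comparisons. Against the same blood cells, Psmb7 rose in GFPpos glioma monocytes (1.10) and Psmb6 in GFPpos CCR2low macrophages (0.66), both constitutive subunits. The GFPpos glioma monocytes include the summed libraries of mouse 22, and the Psmb7 call was not repeated without the second library.

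Of 12 promoter factor genes, 1 fell in GFPneg glioma monocytes, 3 in CCR2high and 3 in CCR2low macrophages, where 2.68%, 5.14% and 6.09% of all tested genes fell. Nfkb1, which encodes the p50 subunit of NF-κB, had log2 fold changes of -1.57, -2.29 and -1.66 in these populations. Creb1 (-1.25 and -1.21) and Irf2 (-0.94 and -1.09) made up the other falls in the macrophages. Of 10 interferon receptor and signalling genes, 1, 1 and 0 rose and 1, 1 and 2 fell. Among all tested genes 11.1%, 12.7% and 14.1% rose, so these rises were near or below the background. Jak2 rose in glioma monocytes (2.28) and CCR2high macrophages (1.88), and Ifngr1, a chain of the interferon-γ receptor, fell in all 3 populations (-1.42, -1.36 and -1.61). Irf9 fell in CCR2low macrophages (-0.77). In blood, H2-Q6 (-2.77), H2-T22 (-0.88) and Psmb9 (-1.13) were lower in Ly6Chigh than in Ly6Clow monocytes. These calls include the Ly6Clow sample of mouse 23 and were not repeated without the second libraries. Within the glioma 1 gene of these lists passed, H2-T24. It was lower in GFPneg CCR2low macrophages than in GFPneg glioma monocytes (-1.79, FDR 0.0152), where 1.21% of all tested genes were called either way. As 1 call over several lists and comparisons, it is given as a description.

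The genes whose levels followed the 10 most closely were found by Pearson's r between log2 CPM and the mean standardized level of the 10 over 28 replicates, among 8125 other genes that averaged 10 CPM or more. They were Serpina3f (0.928), Cxcl11 (0.905), H2-Q6 (0.903), Tgtp2 (0.900), Serpina3g (0.898), Gbp2 (0.898), Cox6a2 (0.897), Irg1 (0.892), Fasl (0.888) and Ccl5 (0.888). The replicates share mice and the blood to brain difference, so these values are descriptive. Among the 10 genes themselves, r with the mean of the other members was 0.87 for Tap2, 0.84 for H2-K1, 0.83 for Tap1, 0.80 for H2-T23, 0.80 for H2-Q7, 0.72 for Psmb8, 0.67 for H2-Q4 and 0.67 for B2m, and it was lowest for H2-D1 (0.40) and Nlrc5 (0.26).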

How the data were processed

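Read counts per gene were deposited by the authors, whose methods name STAR alignment to mm10, removal of duplicates with Picard 1.8.4 and HTSeq counting (intersection-strict) on GENCODE GRCm38.p3, from SMARTer Ultra Low and Nextera XT libraries. Removing duplicates lowers the counts of highly expressed genes such as B2m most. The strand setting is not given in the sources used here. Of 30 libraries, 1 did not reach 6000 genes with 5 or more reads. Libraries of the same sample that passed were summed, giving 28 replicates. Every replicate column was mapped to a sample by its title, and 0 columns were left unused.

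Counts were tested with edgeR 4.0.16 in R 4.3.3 (filterByExpr, TMM, robust quasi-likelihood fit over all 8 populations, Benjamini-Hochberg adjustment). The code was tested on simulated data. CPM used TMM sizes, and log2 CPM a prior count of 2. All 10 genes were named, along with up to 4 called genes with the largest changes per pathway list and the 10 most similar genes. The genes and lists were chosen with earlier results of these data known. A result of the promoter factor list is not reported here. Mouse numbers in the titles pair the populations of an animal. Deviations of same-mouse samples from their group means correlated at 0.0758 to 0.674 between brain populations, 0.0869 to 0.255 between blood populations and -0.0826 to 0.0658 between blood and brain. The alternatives were DESeq2 1.42.0 (test and size factors), spike-in scaling from 92 RNAs, other filters, a mouse block, fits of the compared populations alone, leaving out each replicate and, chosen after seeing the data, leaving out the second libraries. Gene coordinates and exon overlaps came from GENCODE vM21 (GRCm38), and promoters from RefSeq.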

Additional observations from a re-analysis of the deposited data

Results flagged for a closer look

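H2-Q4 in GFPpos CCR2high macrophages of mouse 24 was at 0.603 CPM, from 1 count, while the other 3 mice had 10.5 to 12.6 CPM. It lay far from the others by Dixon's criterion, as 1 of 40 groups of 4 replicates tested, of which chance picks about 1 in 20.

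The first library of Ly6Clow blood monocytes of mouse 23, which failed the quality rule and entered no comparison, had more than 3 counts for 9 of the 10 genes, which is more than a count of 0 allows. Nlrc5 was at 0 in it. H2-K1 had 3166 counts and H2-Q4 had 24 counts.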

How the results depend on the processing

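Spike-in scaling left 0 of the 10 genes called in the blood comparison and 1 in each of the comparisons of GFPneg glioma monocytes, CCR2high and CCR2low macrophages with Ly6Chigh blood, and the cause was not tested. The lost brain calls kept log2 fold changes of 0.77 to 2.78. It turned the blood log2 fold changes of B2m (0.98), H2-D1 (1.20), H2-K1 (0.70), H2-Q4 (0.58), H2-T23 (1.35) and Psmb8 (1.15) upward. Fitting the compared populations only left 0 called in blood, with fewer samples in the fit. The mouse block changed the call of 1 value, Psmb8 in CCR2low macrophages (0.78), and turned the H2-D1 blood value (0.030). Leaving out the second libraries turned Tap1 (-0.090) and Tap2 (-0.15) in blood. Leaving out 1 replicate gave 1 to 3 called in blood, 7 to 8 in glioma monocytes, 3 to 7 in CCR2high and 3 to 6 in CCR2low macrophages. It turned values in blood for H2-D1 (-0.46 to 0.24), H2-Q4 (-1.25 to 0.64), Nlrc5 (-0.20 to 1.23), Tap1 (-0.083 to 0.88) and Tap2 (-0.14 to 0.69), and for Nlrc5 in CCR2high (-0.54 to 0.028) and CCR2low macrophages (-0.39 to 0.16). H2-Q4 in CCR2high macrophages passed with DESeq2 size factors (FDR 0.0440), the DESeq2 test (0.00693) and without the second libraries (0.0480), and in CCR2low macrophages it missed without a filter (0.0802). Psmb8 in CCR2low macrophages passed with the DESeq2 test (0.0449) and with a filter of 10 counts in every library (0.0383), which left H2-Q4 and Nlrc5 untested. Within the glioma 0 of 1462 fits over 32 settings called any of the 10 genes. Depth limits H2-Q4 most, at 0 to 11 counts in Ly6Chigh blood.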
